A study of Homo sapiens with 6 samples.

Results

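S100 proteins are small calcium-binding proteins, and 9 genes whose symbols begin with S100 are described here in MRC-5 fibroblasts held quiescent or taken as young cells. The genes are S100A2, S100A3, S100A4, S100A6, S100A10, S100A11, S100A13 and S100A16, which encode S100 proteins, and S100PBP, which encodes a nuclear protein that binds S100P and is not itself an S100 protein. They were taken by symbol from the 60675 gene entries of the count table. MRC-5 is an established line of normal human fetal lung fibroblasts with a finite lifespan in culture. The 3 quiescent libraries came from cells arrested by 9 days of contact inhibition, and the 3 young libraries came from control cells with no such arrest. Both groups were at population doubling 32, and the labels name no drug and no genetic change in either. The labels describe the young libraries as a reanalysis of an earlier series, so growth state and library set cannot be told apart. Whether the replicates were grown apart is not stated, and p-values then measure only the spread between these libraries, which may be technical.

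An S100 protein carries a pair of EF hands, the helix-loop-helix folds that hold calcium. Binding of calcium opens a surface through which the dimer attaches to its targets, such as annexins, myosin and receptors on the cell surface. In fibroblasts these proteins are known for roles in motility, membrane traffic and the response to growth factors, and S100A6, also called calcyclin, was first described as a gene tied to proliferation. The genes were chosen with their difference between quiescent and young cells in view, so that difference is described below with its error and without a test.

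All 9 genes lie on chromosome 1. On GRCh38 S100A6, S100A4, S100A3 and S100A2 stand in that order within 33.3 kb, from 153534599 to 153567890, with S100A16 (153606886 to 153613145) and S100A13 (153618787 to 153631360) beyond them. S100A10 (151982915 to 151994390) and S100A11 (152032506 to 152047907) form a pair of neighbours outside this cluster, and S100PBP (32816767 to 32858879) lies on the other arm of the chromosome. S100PBP is on the plus strand and the other members are on the minus strand. S100A3 lies within the limits of S100A4, but the exons of the 2 genes share no base. S100A13 shares 235 exon bases with S100A1 on the opposite strand, which is 10.6% of its exon length, and since the library kit does not mark the strand, reads from those bases cannot be assigned to either gene with certainty. Another 536 of its exon bases lie in AL162258.1, a transcript on the same strand. S100PBP shares 396 exon bases (4.31%) with YARS, and S100A6 shares 23 (2.37%) with the antisense transcript BX470102.1. Both overlaps are with the opposite strand, so the same limit holds for reads from those bases.

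The promoter windows of 5 members are printed to show the letters around the starts of the 3 genes with the largest difference (S100A4, S100A3 and S100A2) and of the most abundant pair (S100A6 and S100A11). Each is a RefSeq window on GRCh38.p14 from 250 bases before to 50 bases after an annotated start, 5′ to 3′ on the gene's own strand, and capitals mark matches to the motifs named after the sequences.
S100A4, chr1:153545757-153546056, minus strand: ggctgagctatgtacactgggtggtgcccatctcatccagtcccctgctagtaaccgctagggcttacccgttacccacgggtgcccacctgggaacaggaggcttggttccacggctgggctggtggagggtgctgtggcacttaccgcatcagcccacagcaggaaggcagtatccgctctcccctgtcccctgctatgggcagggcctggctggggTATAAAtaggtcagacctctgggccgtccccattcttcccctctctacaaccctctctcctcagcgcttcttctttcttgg
S100A3, chr1:153549209-153549508, minus strand: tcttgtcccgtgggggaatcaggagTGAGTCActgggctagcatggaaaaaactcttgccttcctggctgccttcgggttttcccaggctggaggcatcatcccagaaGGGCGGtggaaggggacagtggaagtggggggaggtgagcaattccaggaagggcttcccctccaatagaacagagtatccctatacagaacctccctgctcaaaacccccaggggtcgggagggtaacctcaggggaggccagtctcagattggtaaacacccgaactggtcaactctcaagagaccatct
S100A2, chr1:153565795-153566094, minus strand: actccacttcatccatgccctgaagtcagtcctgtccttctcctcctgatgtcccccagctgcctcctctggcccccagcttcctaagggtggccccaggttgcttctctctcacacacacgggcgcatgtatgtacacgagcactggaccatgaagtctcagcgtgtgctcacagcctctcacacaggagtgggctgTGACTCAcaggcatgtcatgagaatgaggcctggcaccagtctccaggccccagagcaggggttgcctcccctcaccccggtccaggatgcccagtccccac
S100A6, chr1:153535942-153536241, minus strand: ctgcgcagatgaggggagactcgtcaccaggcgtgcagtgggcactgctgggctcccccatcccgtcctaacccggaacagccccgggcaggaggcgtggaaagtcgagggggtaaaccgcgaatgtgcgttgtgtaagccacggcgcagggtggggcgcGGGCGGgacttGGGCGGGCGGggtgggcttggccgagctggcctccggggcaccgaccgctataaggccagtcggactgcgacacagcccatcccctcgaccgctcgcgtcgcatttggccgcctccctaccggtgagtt
S100A11, chr1:152036955-152037254, minus strand: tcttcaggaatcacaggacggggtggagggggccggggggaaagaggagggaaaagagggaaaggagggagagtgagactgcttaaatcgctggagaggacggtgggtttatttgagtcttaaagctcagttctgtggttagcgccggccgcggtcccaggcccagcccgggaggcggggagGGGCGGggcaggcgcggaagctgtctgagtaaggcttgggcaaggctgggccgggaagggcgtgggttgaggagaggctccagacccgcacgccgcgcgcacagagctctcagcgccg

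RefSeq windows were found for all 9 members, 15 in all because some genes have several starts. Both strands were searched for 5 motifs, and each share is of all 35116 windows of the same length. The TATA box was searched as TATAAA and was present in 11.5% of windows. The AP-1 motif was searched as TGANTCA and was present in 7.71%. The Sp1 motif was searched as GGGCGG and was present in 45%. The TEAD motif was searched as GGAATG and was present in 14%, and the CArG box was present in 1.29%. In S100A4 the single match was a TATA box that begins 31 bases before the start. S100A2 held an AP-1 match 52 bases before the start printed here, while the window of its other start held no match, and S100A3 held an AP-1 match and an Sp1 match 225 and 142 bases before its start. S100A6 held Sp1 matches 90, 79 and 75 bases before its start, the latter pair overlapping, and S100A11 held an Sp1 match 68 bases before its start. Windows also differed in CG pairs, with 8 in S100A4 and 5 each in S100A3 and S100A2 against 31 in S100A6, 22 in S100A11 and 32 in S100A10, where the median of all windows was 14. The other windows held 4 in S100A2, 3 and 8 in S100A16, 19, 11 and 12 in S100A13, and 1, 26 and 24 in S100PBP. A relation of CG pairs to the fold changes was not tested. Of the windows not printed, those of S100A16 held the TEAD letters at both starts. A window of S100A13 held a TATA box 29 bases before its start, and a window of S100PBP held an AP-1 match 149 bases before its start. Of the 15 member windows, 2 held a TATA box, 3 an AP-1 match, 8 an Sp1 match and 2 the TEAD letters. No member window held a CArG box. A match is a run of letters, and no binding was measured here.

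Counts per library ranged from 18661639 to 29433764. Values are given as CPM, counts scaled to a common library size with TMM factors, unless a level per kilobase is named, and fold changes are quiescent minus young in log2 with the SE of the edgeR fit. Fibroblast markers were abundant in every library, with a summed 25184 to 25801 CPM over 10 genes in young and 14788 to 15153 CPM in quiescent libraries. Of the markers of other cell types, the sums were 43.3 to 46.8 CPM (young) and 27.4 to 28.8 CPM (quiescent) for the 10 epithelial and keratinocyte genes, with KRT5, KRT14 and SFTPC at 0 reads. Sums for the 6 endothelial genes were 75.8 to 86.6 and 94.7 to 96.9 CPM, for the 7 myeloid genes, with AIF1 at 0 reads, 1.06 to 1.74 and 2.62 to 3.53 CPM, and for the 6 lymphoid genes, with CD3D, CD3E, CD2 and MS4A1 at 0 reads, 0.222 to 0.538 and 0.151 to 0.194 CPM. Most of the endothelial sum was TEK, at 78.7 ± 5.47 CPM (SD, n = 3) in young and 89.1 ± 0.839 in quiescent libraries. KDR and VWF were scarce, at 0.394 and 0.803 CPM in young and 3.10 and 3.27 CPM in quiescent libraries. PECAM1, CDH5 and CLDN5 were too scarce to be tested. The part of these markers of other cell types in the differences below was not tested. In bulk RNA, fewer cells that express a gene and less RNA per cell cannot be told apart.

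Most of the 9 transcripts, which were chosen on this contrast, were less abundant in quiescent cells. In 7 of the 9 genes all 3 quiescent values lay below all 3 young values, in S100PBP they lay above, and in S100A13 the groups overlapped. Of all 15568 genes tested, 73.5% had groups that did not overlap, with 37.1% below and 36.4% above every young value, and nothing is read from the members' count because they were chosen on this contrast. The level was at least 2-fold lower in 6 of the 9 genes and at least 2-fold higher in none. Of all tested genes 8.33% were lower and 8.98% higher by that much at an adjusted p under 0.05, and nothing is read from these shares either. The median log2 fold change was -1.29 over the 9 genes and 0.00 over all tested genes, a gap that is likewise only described. With library size alone in place of TMM factors, the median of all genes was 0.18, and each member's value moved up by about as much. Young library 1.2 held the highest young value in 8 of the 9 genes, and young library 1.1 held it for S100A2.

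**Figure D1:**
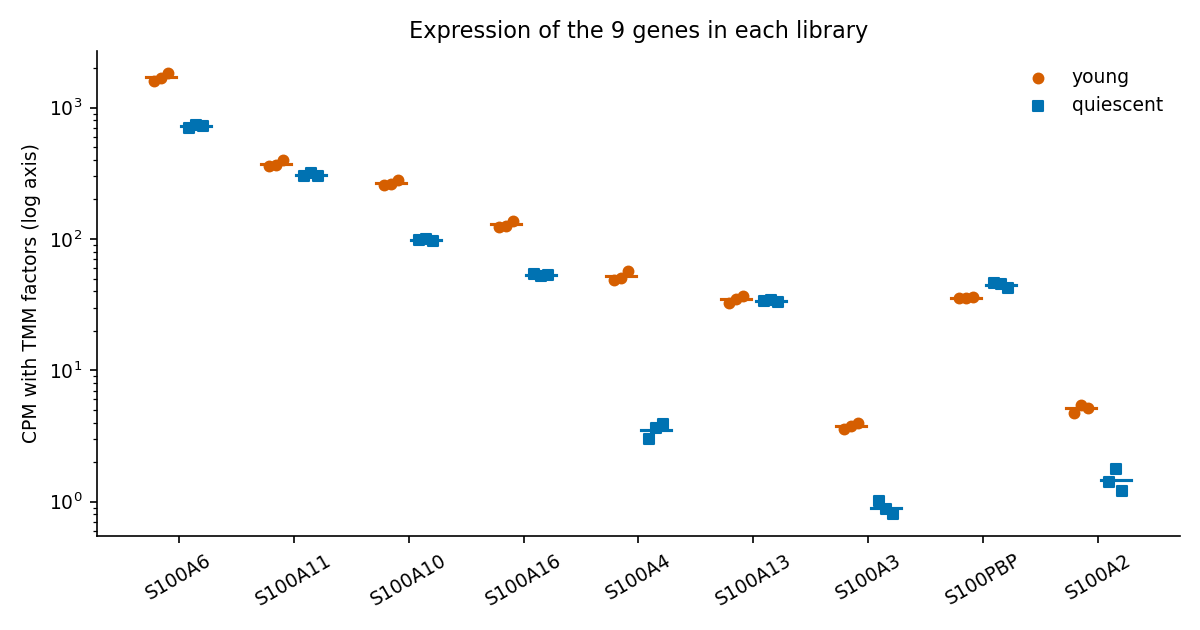
CPM with TMM factors (log axis) of each of the 9 genes in the 3 young libraries (circles) and the 3 quiescent libraries (squares), with a line at each group mean. The groups are apart in every gene except S100A13, with S100A4 showing the widest gap and S100PBP the only one with quiescent values on top. Genes are ordered by level per length in young cells, and heights are to be compared between groups within a gene.

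S100A4 showed the largest difference. It is also called metastasin or fibroblast-specific protein, binds non-muscle myosin and is known for a role in cell motility. It had 1249, 1362 and 1578 reads in young libraries 1.0, 1.1 and 1.2, which is 49.1, 50.4 and 56.6 CPM, and 62, 86 and 78 reads in quiescent libraries 1, 2 and 3, which is 3.00, 3.61 and 3.93 CPM. The lowest young library thus stood far above the highest quiescent one. The log2 fold change was -3.89 ± 0.09 (SE, n = 3 per group), a level 14.8-fold lower, and 39 of the 15568 tested genes had a lower log2 fold change.

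Its neighbours S100A3 and S100A2 were scarce in both groups. S100A3, a cysteine-rich member known from the hair cuticle, had 91, 101 and 111 reads in young and 21, 21 and 16 in quiescent libraries, or 3.58, 3.73 and 3.98 CPM against 1.02, 0.881 and 0.806 CPM. The fold change was -2.06 ± 0.18 in log2. S100A2, best known from epithelia, where it binds p53, had 121, 148 and 143 reads in young and 29, 42 and 24 in quiescent libraries, or 4.76, 5.47 and 5.13 CPM against 1.405, 1.76 and 1.21 CPM. The fold change was -1.79 ± 0.16. The groups did not overlap in either gene, and the low counts are reflected in SEs that are the widest among the 9 genes.

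S100A6 was by far the most abundant member. It had 1589.9, 1682 and 1845 CPM in young and 698, 742 and 728 CPM in quiescent libraries, and the groups were far apart. The fold change was -1.24 ± 0.05 in log2, or 2.36-fold lower. It ranked 56 by CPM among the tested genes in young cells and 136 in quiescent cells.

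S100A10 pairs with annexin A2 at the plasma membrane and is the member whose loops have lost the ability to bind calcium. It had 258, 262 and 281 CPM in young and 97.5, 99.2 and 97.0 CPM in quiescent libraries, a fold change of -1.45 ± 0.04. The quiescent values were nearly identical and all lay well below the young ones. S100A16, a widely expressed member, had 125, 126 and 138 CPM in young and 54.0, 51.8 and 52.8 CPM in quiescent libraries, a fold change of -1.29 ± 0.05, and its groups were as clearly apart.

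S100A11, a partner of annexin A1 also called calgizzarin, differed less. It had 358, 363 and 402 CPM in young and 300.4, 316 and 304 CPM in quiescent libraries. All quiescent values were below all young values, but by a margin no wider than the range of the young libraries. The fold change was -0.29 ± 0.04, and -0.11 with library size alone.

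S100A13 takes part in the export of FGF1 and interleukin 1 alpha, which lack a signal peptide. It had 32.4, 34.6 and 36.9 CPM in young and 33.6, 34.2 and 32.9 CPM in quiescent libraries, so the quiescent values lay within the young range. The fold change was -0.05 ± 0.06, and its sign turned with library size alone, to 0.13, with upper-quartile factors, to 0.02, and without young library 1.2, to 0.01. S100PBP had 35.3, 35.4 and 36.1 CPM in young and 45.9, 45.5 and 42.1 CPM in quiescent libraries, a fold change of 0.32 ± 0.05, and all 3 quiescent libraries were above the young ones. The 396 exon bases that S100PBP shares with YARS are a limit on its count.

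**Figure D2:**
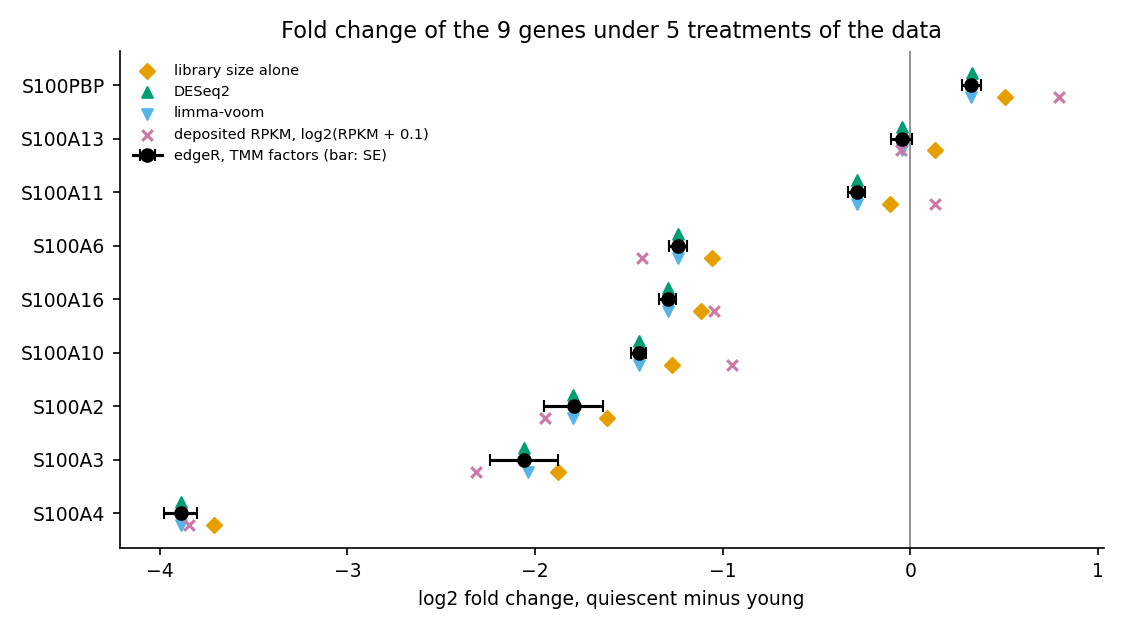
Log2 fold change, quiescent minus young, of each gene with edgeR and TMM factors (black, bar: SE), with library size alone, with DESeq2, with limma-voom and with limma on the deposited RPKM. S100A4 stands at -3.89 and S100PBP at 0.32 with edgeR, and S100A11 and S100A13 are the genes whose sign depends on the treatment.

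Levels of different genes were compared per length, as CPM per kilobase of exon. In young cells the order was S100A6 at 1757 ± 133 (SD, n = 3), S100A11 at 551 ± 35.3, S100A10 at 173 ± 7.96, S100A16 at 76.2 ± 4.41, S100A4 at 50.8 ± 3.92, S100A13 at 15.6 ± 1.01, S100A3 at 3.94 ± 0.213, S100PBP at 3.87 ± 0.0446 and S100A2 at 3.27 ± 0.227 CPM per kilobase. Only S100A3 and S100PBP had ranges that overlapped their neighbour in this order. In quiescent cells S100A6 (744 ± 23.2), S100A11 (451 ± 12.4), S100A10 (63.4 ± 0.743) and S100A16 (31.1 ± 0.644) kept the first places. S100A13 followed at 15.1 ± 0.297 and S100PBP at 4.84 ± 0.226, both now above S100A4 at 3.43 ± 0.459 CPM per kilobase. S100A3 (0.944 ± 0.112) and S100A2 (0.931 ± 0.178) came last, and their ranges overlapped.

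**Figure D3:**
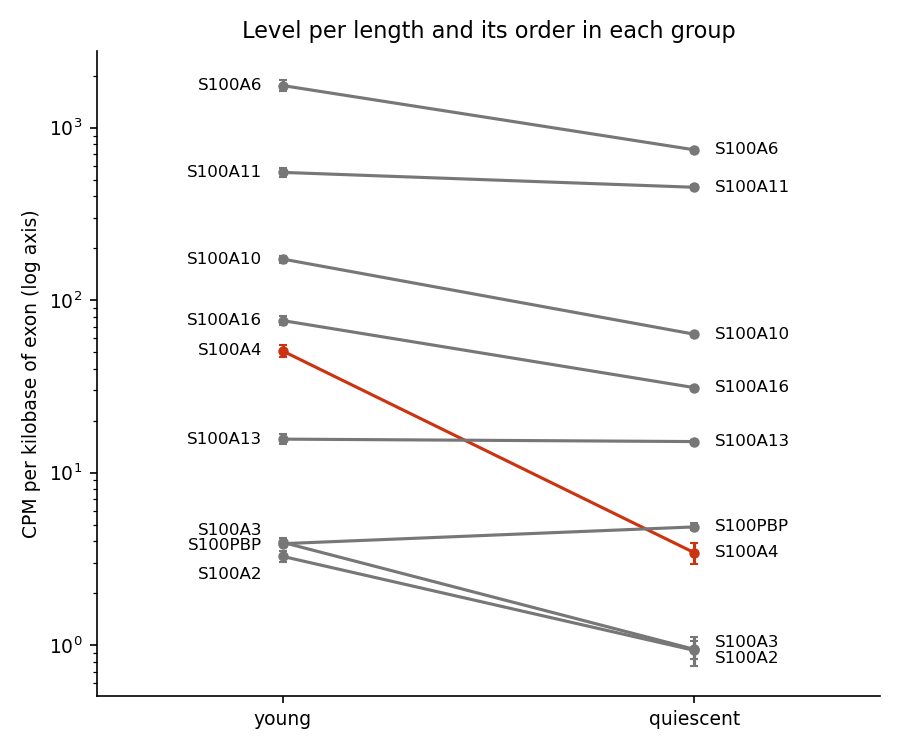
Mean level per length (CPM per kilobase of exon, log axis) of the 9 genes in young and quiescent cells, with bars of 1 SD over 3 libraries. S100A4 (red) went from the fifth place at 50.8 to the seventh at 3.43 CPM per kilobase, while the first 4 genes kept their order.

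The transcripts of the 8 S100 proteins together stood at 2630 ± 185 CPM per kilobase in young and 1311 ± 34.9 in quiescent cells, so the quiescent sum was 49.8% of the young one. Within that sum S100A6 made up 66.8% ± 0.501 (SD, n = 3) in young and 56.8% ± 0.422 in quiescent cells. S100A11 made up 20.9% ± 0.311 and 34.4% ± 0.298, S100A10 6.59% ± 0.165 and 4.84% ± 0.0977, and S100A4 1.93% ± 0.0249 and 0.261% ± 0.0315. These shares are parts of the same sum, and their differences were not tested. The S100A11 share was thus larger in quiescent cells although its level was lower, at 551 CPM per kilobase in young and 451 in quiescent cells. The ratio of S100A10 to S100A11, which are neighbours on the chromosome, was 0.315 ± 0.00563 per length in young and 0.141 ± 0.00247 in quiescent cells. The ratio of S100A4 to S100A3 was 12.9 ± 0.347 in young and 3.70 ± 0.901 in quiescent cells, where the values of libraries 1, 2 and 3 were 2.75, 3.82 and 4.54.

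In the order of the cluster, S100A6, S100A4, S100A3 and S100A2 stood at -1.24, -3.89, -2.06 and -1.79 in log2, and S100A16 and S100A13 at -1.29 and -0.05. The difference was thus largest in S100A4, with S100A6 on its other side. S100A3 and S100A2 cannot be put in order, given SEs of 0.18 and 0.16. S100A1, which overlaps S100A13 and is not a member, stood at 1.12 ± 0.23, and S100A5 and S100A14 were too scarce to be tested. The order along the cluster is only described, because the members were chosen on this contrast. Of 31 other gene entries, under 30 symbols, from 250 kb before S100A9 to 250 kb after S100A16 (153107854 to 153863145), 6 were abundant enough to be tested. Of these 2 were higher and 2 lower at an adjusted p under 0.05 (2 higher and 1 lower with library size alone), and their median was -0.12. Among all tested genes 71.1% were called, 34.8% higher and 36.3% lower, so the neighbours' share was near that of all genes. ILF2, a subunit of a nuclear RNA-binding complex, fell by 0.53 ± 0.05 in log2 (adjusted p = 1.94e-10). SLC27A3, an acyl-CoA synthetase of the fatty acid transport family, rose by 0.68 ± 0.16 (adjusted p = 6.14e-04) and INTS3, a subunit of Integrator, by 0.29 ± 0.05 (adjusted p = 1.01e-05). The call of INTS3 was lost with limma on the deposited RPKM, at 0.15 with log2(RPKM + 1) and 0.18 with log2(RPKM + 0.1) (adjusted p = 0.378 and 0.387). None of these 6 genes reached the size of difference seen in S100A4, S100A3 or S100A2. Nothing is read from this, because those members were chosen on this contrast.

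**Figure D4:**
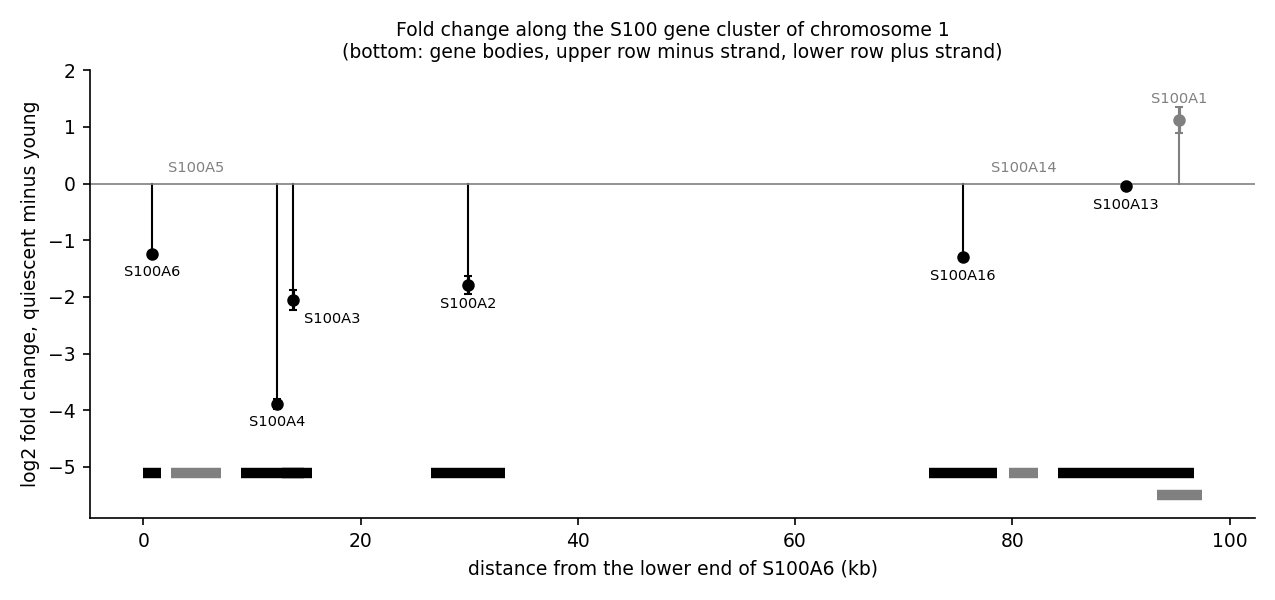
Log2 fold change, quiescent minus young, of the S100 genes of the cluster against distance in kb from the lower end of S100A6, with bars of 1 SE and gene bodies at the bottom. S100A4 at -3.89 stands beside S100A6 at -1.24, S100A13 at -0.05 overlaps S100A1 at 1.12, and S100A5 and S100A14 (grey, no point) were too scarce to be tested.

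Of the 13 other protein-coding S100 genes of the table, 12 were close to or at 0. S100A7A, S100A7L2, S100A8, S100A9, S100A12 and S100Z had 0 reads in every library, which allows at most 0.161 CPM in the smallest library, as 3 counts of its total. S100A8 and S100A9, which form calprotectin, and S100A12 are genes of myeloid cells. S100A5, S100A7, S100A14, S100B, S100G and S100P had between 1 and 15 reads over the 6 libraries, so S100P, the ligand of S100PBP, was at 3 reads in young and 1 in quiescent libraries. S100A1, known from heart muscle, was the exception. It had 21, 22 and 18 reads in young and 40, 39 and 28 in quiescent libraries, although the quiescent libraries are smaller, or 0.762 ± 0.101 against 1.66 ± 0.264 CPM. It rose by 1.12 ± 0.23 in log2 (adjusted p = 1.39e-04), higher in all 3 quiescent libraries than in any young one, with the limit that 235 of its exon bases lie in S100A13 and 320 in the antisense transcript AL162258.2, both on the opposite strand. The pseudogene S100A11P1 had 22 reads in young and 0 in quiescent libraries, beside 6030 to 11205 reads per library for S100A11.

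Annexins bind membranes when calcium is present, and several are held by S100 proteins. All 9 tested annexins of 13 listed passed the test, 7 lower and 2 higher, against 71.1% called among all genes (36.3% lower, 34.8% higher). With library size alone 6 annexins were lower and 2 higher, and with limma on the deposited RPKM 5 were lower and 1 higher. The median of the annexins was -0.66 in log2 and that of all genes 0.00. ANXA2, the partner of S100A10, had 999.98, 1065 and 1115 CPM in young and 383, 386 and 377 CPM in quiescent libraries. It fell by 1.47 ± 0.04 in log2 (adjusted p = 1.68e-20), beside -1.45 ± 0.04 for S100A10. ANXA2 has 3 annotated pseudogenes, which leaves its count uncertain to that extent. ANXA1, the partner of S100A11, had 527, 539 and 578 CPM in young and 239, 246 and 243 CPM in quiescent libraries and fell by 1.18 ± 0.04 (adjusted p = 1.10e-18), beside -0.29 ± 0.04 for S100A11. ANXA3 fell by 1.31 ± 0.07 and ANXA4 rose by 0.56 ± 0.04. The differences between partners were not tested.

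Of the 20 tested genes among 24 listed as binding partners of the members, 17 were lower and 2 higher at an adjusted p under 0.05, with a median of -0.44, where 36.3% of all tested genes were lower and 34.8% higher. The list shares 5 genes with the annexins. FGF1, the growth factor exported with S100A13, had 18.1, 17.7 and 18.6 CPM in young and 2.66, 2.01 and 2.82 CPM in quiescent libraries. It fell by 2.87 ± 0.10 in log2 (adjusted p = 2.05e-18), while S100A13 stood at -0.05 ± 0.06. MYH9, the heavy chain of the non-muscle myosin that S100A4 binds, fell from 3740.4 ± 308 to 2910.5 ± 62.4 CPM (adjusted p = 1.17e-06). With limma on the deposited RPKM its call was lost (adjusted p = 0.0907 with log2(RPKM + 1) and 0.0798 with log2(RPKM + 0.1)). PPFIBP1, liprin beta 1, another partner of S100A4, fell from 79.0 ± 4.02 to 60.9 ± 2.14 CPM (adjusted p = 8.65e-08). CACYBP, the calcyclin-binding protein that S100A6 attaches to, fell from 40.4 ± 3.55 to 30.9 ± 1.78 CPM (adjusted p = 8.34e-06), and it too has 3 annotated pseudogenes. AHNAK, a giant scaffold joined to the complex of S100A10 and annexin A2, fell from 2103 ± 256 to 1236 ± 20.97 CPM (adjusted p = 3.95e-05). MDM2, the ubiquitin ligase of p53, rose by 0.73 ± 0.04. Each of these genes had quiescent values that did not overlap the young ones.

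The complex of S100A10 and annexin A2 is known to hold plasminogen and its activator at the cell surface. In the list of plasminogen activation 6 of 8 tested genes were lower and 0 higher (6 lower and 1 higher with library size alone), with a median of -1.22. The 6 called genes are 75% of the list, near the 71.1% called among all genes, of which 36.3% were lower. The urokinase receptor PLAUR fell from 83.0 ± 1.64 to 23.3 ± 0.265 CPM (adjusted p = 1.83e-21), and urokinase PLAU from 1299 ± 40.8 to 500.3 ± 5.45 CPM (adjusted p = 1.53e-20). An activator and its receptor thus fell together.

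Of the receptors bound by S100 proteins outside the cell, 4 of 8 tested genes were lower and 2 higher (3 and 3 with library size alone), with a median of -0.24, and the 75% called was near the 71.1% of all genes. MCAM, an adhesion molecule, fell from 266 ± 6.10 to 76.1 ± 3.62 CPM (adjusted p = 3.73e-22) and ALCAM from 449 ± 15.5 to 179 ± 1.49 CPM (adjusted p = 3.94e-20). CD36, a scavenger receptor, rose from 2.43 ± 0.306 to 6.96 ± 0.679 CPM (adjusted p = 1.12e-10). Of other EF-hand proteins 27 of 40 tested genes were lower and 4 higher (20 and 10 with library size alone), with a median of -0.33, against 36.3% lower and 34.8% higher among all genes. SPARC, a secreted matrix protein with EF hands, fell from 2919.7 ± 89.6 to 1023 ± 4.93 CPM (adjusted p = 2.43e-21), while CALML6 and calretinin, CALB2, rose by 1.47 ± 0.24 and 1.39 ± 0.18 in log2 from levels near 1 CPM. Calcium pumps and channels had 10 of 20 tested genes lower and 6 higher (10 and 8 with library size alone), with a median of -0.27, and 80% were called against 71.1% of all genes. The sodium-calcium exchanger SLC8A1 fell by 1.94 ± 0.06 and the pump ATP2A3 rose by 1.097 ± 0.10 in log2.

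**Figure D5:**
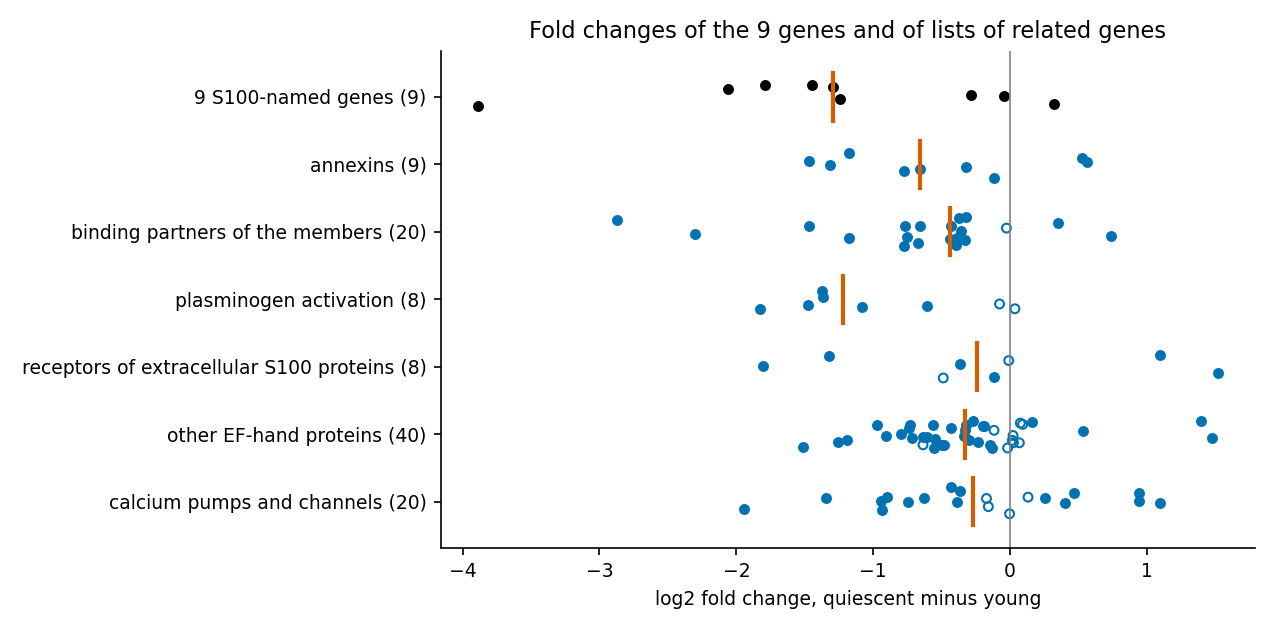
Log2 fold change, quiescent minus young, of the 9 genes (black, no test) and of the tested genes of 6 lists of related genes (filled: adjusted p under 0.05, open: not past it), with an orange line at each median and the number of genes in brackets. Medians run from -1.29 for the 9 genes and -1.22 for plasminogen activation to -0.24 for the receptors. The 9 genes were chosen on this contrast, so nothing is read from their median.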

How the data were processed

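RNA-seq counts were examined for 3 quiescent and 3 young MRC-5 libraries. Per the labels' protocols, a TruSeq RNA v2 kit was used, which keeps no strand information. The tools, per the submitters' processing notes, included bcl2fastq 1.8.4, STAR 2.4.1d and featureCounts 1.4.6-p4 on GRCh38. The authors deposited raw counts per gene and a table of RPKM. How multiply mapped reads were counted, and against which annotation, is not given in the sources used here.

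The quiescent columns carry their samples' titles. The young columns were placed in their group by a shared name, without a link to single samples. Symbols, coordinates and exon lengths came from GENCODE 29, in which 57055 of the 60675 gene IDs had an entry.

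Counts were fitted with edgeR 4.0.16 in R 4.3.3 (filterByExpr, TMM factors, robust quasi-likelihood, group as the only term), with Benjamini-Hochberg adjustment across all 15568 genes. Every adjusted p in the report is from that fit unless another fit or the alternatives are named beside it. The biological coefficient of variation was 3.84%. The limit given for 0 reads covers counting error only, and SEs and SDs include the spread between libraries. The fit was tested on simulated data in which far fewer genes differed than were called here. How the scaling holds under so many differences was not tested. Alternatives were other scalings and filters, DESeq2 1.42.0, limma-voom and limma 3.58.1 on log2(RPKM + 1) and log2(RPKM + 0.1), and omission of each library. Levels per length were to be read from the deposited RPKM, but those values proved to be scaled unevenly, so CPM per kilobase of exon was computed from the counts in their place.

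The members, the gene lists and the rule for named genes were chosen with earlier results of these data known. The rule named the members, other S100 genes, 8 fixed genes and, for each list, the 3 largest changes past the threshold at a mean of at least 1 CPM and the largest in the minority direction. Some genes that the rule names are not reported here.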

Additional observations from a re-analysis of the deposited data

How the results depend on the processing

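With counts, each member kept the sign of its fold change in every alternative except S100A13, which stood between -0.08 and 0.13. S100A4 ranged from -3.95 to -3.71, S100A3 from -2.15 to -1.88, S100A2 from -1.96 to -1.61 and S100A6 from -1.28 to -1.06 in log2. Omission of single libraries gave -3.95 to -3.79 for S100A4 and -0.31 to -0.22 for S100A11. S100A1 passed the test in all 15 alternatives, with an adjusted p of 2.25e-05 to 0.00247. With library size alone, 7568 genes were higher and 3889 lower, against 5412 and 5652. Limma on the deposited RPKM called 2783 genes higher with log2(RPKM + 1) and 2858 with log2(RPKM + 0.1), called 20 of the other EF-hand proteins with either in place of 31, and turned S100A11 to 0.13 with either. The S100A6 share of the 8 members from that table was 67.5% in young and 47.0% in quiescent cells. In it the values of S100A11 were scaled by 33.6 M reads in all young libraries and by 18.7 M, 22.5 M and 19.3 M reads in quiescent ones. No paired analysis was possible because the young columns carry no replicate number of the labels. Depth limits S100A1, S100A2 and S100A3, with at most 148 reads in any library.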

Other observations

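The deposited RPKM table held a regular pattern. For the 1955 genes with at least 2000 reads in every library, the read total behind each RPKM value was computed from the count, the RPKM and the exon length. It repeated every 15 rows of the table in the young columns and every 14 rows in the quiescent columns, with 88.5% of genes within 0.1% of their row's value. Each quiescent column held 14 different totals, from 18.7 M to 33.7 M reads, and each young column held 15, from 25.97 M to 41.5 M reads. The library's own total was found in 5.42% to 6.60% of genes. For S100A10 the totals were 29.01 M, 19.8 M and 22.9 M reads in quiescent libraries 1, 2 and 3 and 41.5 M reads in every young library. Its deposited RPKM in quiescent cells accordingly varied as 59.0 ± 16.8 (SD, n = 3), while its CPM varied as 97.9 ± 1.15. The ratio of 2 genes in 1 library, and of 1 gene between groups, therefore differs between that table and the counts. The cause was not tested.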
